A study of Mus musculus with 12 samples.

Results

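The unfolded protein response and ER chaperone genes described here are 35 genes of the mouse endoplasmic reticulum (ER), chosen by name: the stress sensors and Xbp1, the lumenal chaperones, the disulfide isomerases, the machinery of ER-associated degradation (ERAD), and the protein translocation and UFM1 genes. All 35 had probes on the array, and 34 of them were among the 13838 genes tested. The remaining gene, Derl3, a derlin, was not well above background on any array. The 12 arrays came from RAW264.7 cells, a mouse macrophage-like line, after 24 h in culture. The 4 groups of 3 arrays were NS, HS, NS + LPS and HS + LPS, where HS cells had 40 mM NaCl added, NS cells did not, and LPS is lipopolysaccharide, a bacterial cell wall component, at 10 ng/ml. The series is titled as a study of high salt, which HS is taken to stand for, and the labels do not spell out NS. Nothing in the labels says whether the 3 arrays of a group came from separate cultures, so p-values reflect how far these samples spread, and that spread may be technical only.

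Signal was read on 1-colour Agilent arrays and is given as a log2 level, the log2 of a probe's signal over the 75th percentile of its array, so that 0 is a signal equal to that percentile. Levels of different probes are on different scales and are not compared. A difference is the difference of 2 group means of log2 levels, with its standard error (SE) and with the Benjamini-Hochberg adjusted p of limma's moderated test over all 13838 genes, called at an adjusted p under 0.05. The 75th percentile averaged 724.8 over the NS arrays, 634.2 over HS, 628.2 over NS + LPS and 428.4 over HS + LPS. Between 44.56% and 53.3% of non-control spots were well above background on each array. A single slide carried NS, HS and 2 of the NS + LPS arrays, another one the remaining NS + LPS array, and yet another, with its own scan day, all 3 HS + LPS arrays. What salt did in the presence of LPS, and what LPS did in the presence of salt, therefore cannot be told apart from that slide and scan day. All 6 macrophage markers were well above background on 12 arrays, and none of the 5 epithelial markers passed on any. Of the salt and LPS controls, the betaine transporter Slc6a12 rose by 2.74 (SE 0.14) with salt alone, and Nos2, the inducible nitric oxide synthase, by 5.48 (SE 0.13) with LPS alone. The 34 genes tested were well above background on every array.

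The unfolded protein response is the reaction of a cell to misfolded protein in the ER. 3 membrane sensors start it: IRE1 alpha (gene Ern1), which splices Xbp1 mRNA into the message for an active transcription factor, PERK (gene Eif2ak3), which slows translation and favours ATF4, and ATF6, which is cut free of the membrane and moves to the nucleus. The factors they release raise chaperones, disulfide isomerases and degradation genes, in part through the ER stress response element (ERSE). In macrophages the pathway is known to be engaged by Toll-like receptor signalling, and secretion of cytokines loads the same folding machinery.

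ERSE was searched as CCAAT, 9 bases of any kind and CCACG, and the related ERSE-II as ATTGG, 1 base of any kind and CCACG, on both strands of the RefSeq promoter windows of build GRCm38.p6, which run from 250 bases before to 50 after a gene's start. 30 of the 35 genes were in that table, and Atf6, Derl1, Hyou1, Manf and Sec61a1 were not. ERSE was found in 9 of the 30 genes and in 39 of all 32851 windows (0.119%). Counted by gene, 37 of the 27025 genes with a window held it (0.137%). ERSE-II was found in 2 of the 30, in 12 windows (0.0365%) and in 12 of the 27025 genes (0.0444%). None of the 30 held both. The windows are printed because they show which members share the element. Capitals mark the motif, with 10 bases on each side, 5′ to 3′ in the orientation of the motif.
Hspa5, chr2:34772015-34772053, plus strand: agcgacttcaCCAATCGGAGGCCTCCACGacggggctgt
Hsp90b1, distal copy, chr10:86705628-86705666, minus strand: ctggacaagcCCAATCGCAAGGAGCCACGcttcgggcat
Hsp90b1, proximal copy, chr10:86705523-86705561, plus strand: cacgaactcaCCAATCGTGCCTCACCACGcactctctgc
Calr, chr8:84847065-84847103, plus strand: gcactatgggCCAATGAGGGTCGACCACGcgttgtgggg
Canx, chr11:50325790-50325828, minus strand: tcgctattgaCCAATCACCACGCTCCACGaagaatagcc
Creld2, chr15:88819510-88819548, minus strand: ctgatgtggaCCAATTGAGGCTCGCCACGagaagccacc
Derl3, chr10:75893232-75893270, minus strand: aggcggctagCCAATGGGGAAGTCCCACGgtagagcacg
Dnajc3, chr14:118937817-118937855, plus strand: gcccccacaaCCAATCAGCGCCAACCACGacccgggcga
Pdia6, chr12:17266481-17266519, plus strand: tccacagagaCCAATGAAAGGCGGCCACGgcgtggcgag
Syvn1, chr19:6046522-6046560, plus strand: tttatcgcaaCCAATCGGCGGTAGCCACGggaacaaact
Herpud1, ERSE-II, chr8:94386367-94386397, plus strand: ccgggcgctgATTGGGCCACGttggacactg

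The second ERSE-II match, in Dnajb11, lay at positions 8 to 18 after the start. The ERSE matches lay between positions -212 and -26, counted from the start, and that of Hspa5, the gene of BiP, at -65 to -47. The whole 250 bases before the start of Hspa5, chr2:34771840-34772089 on the plus strand of GRCm38.p6, show the element just ahead of a run of tataa, with the motif in capitals.
Hspa5, 250 bases before the start: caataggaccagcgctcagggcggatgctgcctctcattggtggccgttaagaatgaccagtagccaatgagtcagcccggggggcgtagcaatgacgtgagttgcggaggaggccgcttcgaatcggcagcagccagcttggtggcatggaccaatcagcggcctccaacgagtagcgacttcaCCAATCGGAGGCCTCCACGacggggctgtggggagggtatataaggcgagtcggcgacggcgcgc

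LPS alone, the comparison of NS + LPS with NS, raised most of these genes. Of the 34 tested, 27 rose and 5 fell, beside 28.6% of all genes tested that rose and 35.2% that fell. The median difference of the 34 was 0.369, against -0.034 over all genes. The chaperone partner Dnajb9 had the largest rise (1.69, SE 0.05), followed by the derlin Derl1 (0.99, SE 0.04) and the disulfide isomerase Pdia4 (0.96, SE 0.08). The 5 genes that fell were the sensors Atf6 and Eif2ak3, the co-chaperone Dnajc3, the lectin chaperone Canx and the degradation lectin Edem1. Xbp1 and Edem2 were not called. The NS + LPS arrays lay entirely outside the range of the NS arrays for 31 of the 34, and this was so for 69.6% of all genes. On the shared slide alone, 26 rose and 5 fell. Where a gene had several probes the brightest was used, and the direction depended on that choice for some genes, as described with the probes. Among the 22 members with 1 probe that passed the filter, 15 rose and 5 fell.

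**Figure D1:**
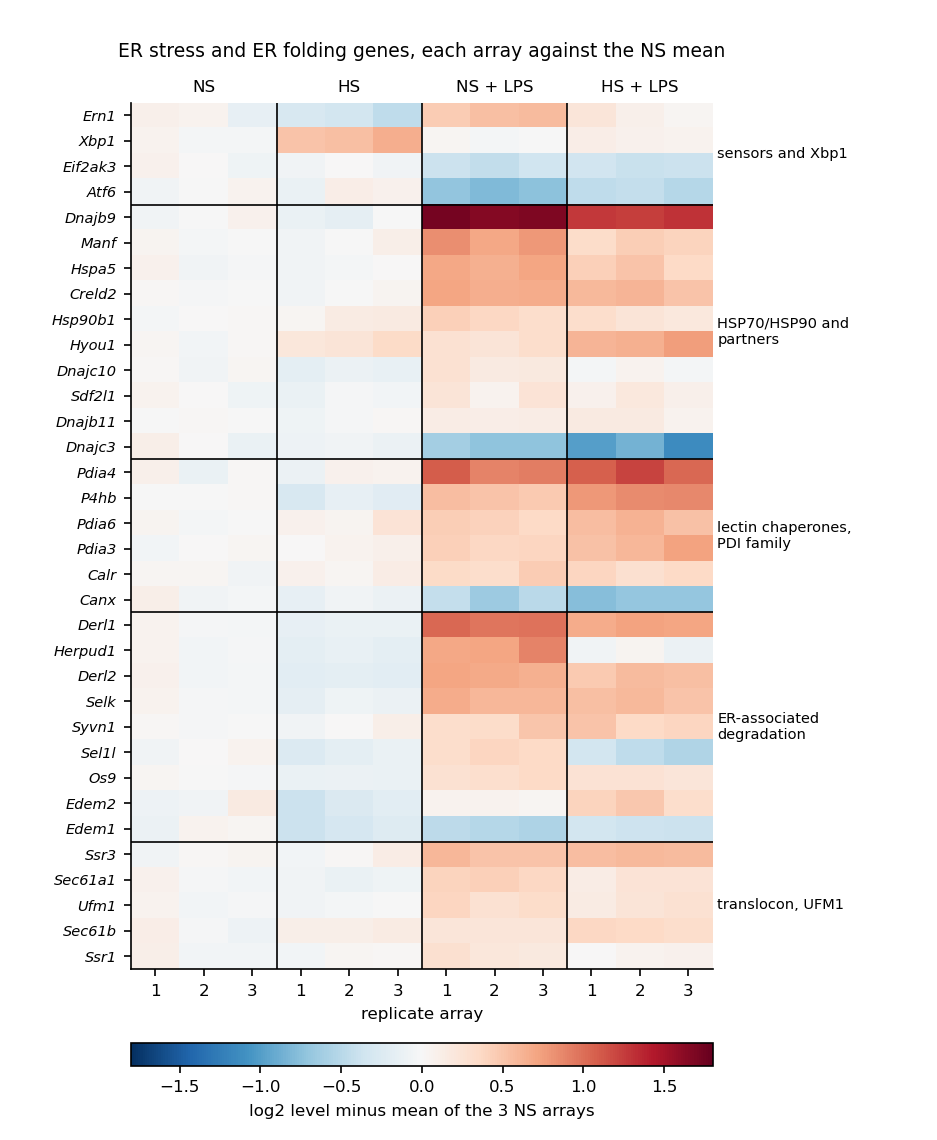
Heat map of the log2 level of each of the 34 genes tested (rows, by role) on each of the 12 arrays (columns), minus the mean of the 3 NS arrays. Red is higher and blue lower than NS. Most rows turned red in both LPS groups, Dnajb9 most of all, while Atf6, Eif2ak3, Dnajc3, Canx and Edem1 turned blue in NS + LPS.

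LPS in added salt, the comparison of HS + LPS with HS, gave 25 genes that rose and 6 that fell of the 34, beside 30.5% and 41.8% of all genes tested. The median of the members was 0.325, against -0.107 over all genes. That background moved with the scaling: higher calls were 42.2% of all calls here and 54.4% after cyclic loess normalization, which shifted the median of all genes by 0.139. After cyclic loess 27 members rose and 6 fell. Dnajb9 again had the largest rise (1.37, SE 0.05), followed by Pdia4 (1.10, SE 0.08) and P4hb (1.04, SE 0.05), the classical protein disulfide isomerase. The genes that fell were Dnajc3, Canx, Atf6, Xbp1, Eif2ak3 and the degradation adaptor Sel1l. Edem1, Herpud1 and Ssr1 were not called.

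**Figure D2:**
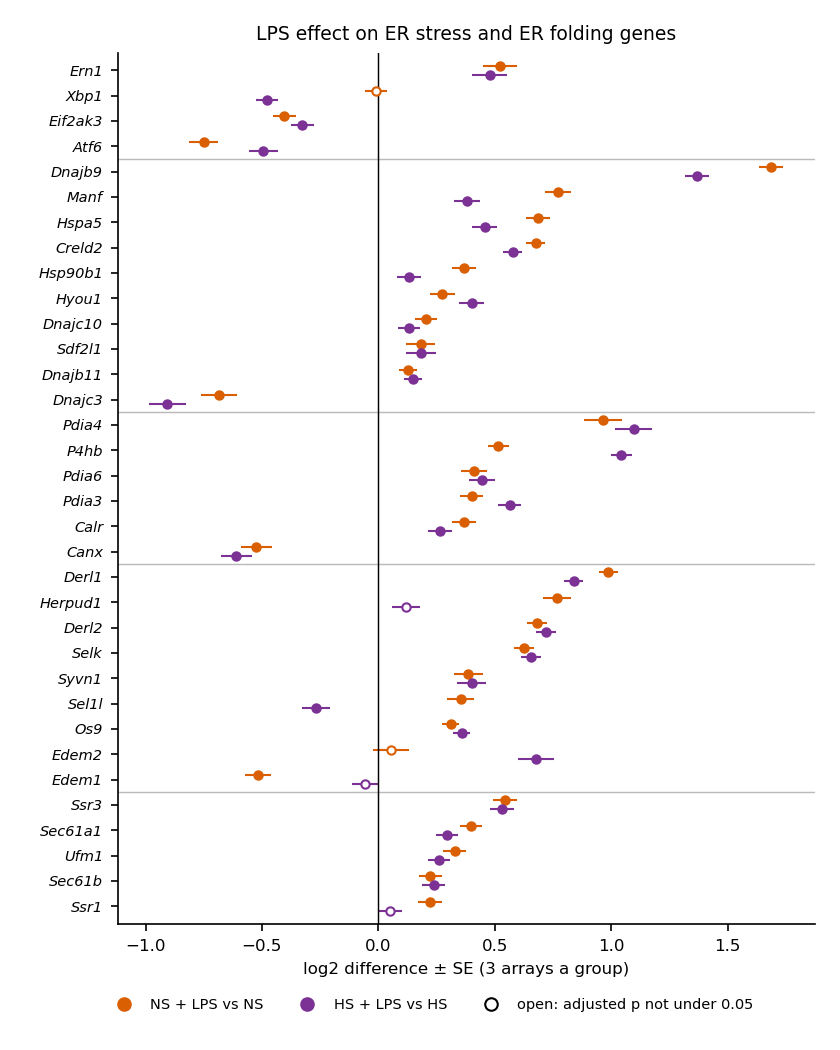
LPS effect on each of the 34 genes, as log2 difference ± SE from 3 arrays a group, without added salt (orange, NS + LPS minus NS) and with it (purple, HS + LPS minus HS). Filled points passed an adjusted p of 0.05 in limma's moderated test. Dnajb9 lay farthest to the right in both. The paired points lay farthest apart for Herpud1, Edem2, Sel1l and P4hb, each by over 0.5.

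Salt alone, the comparison of HS with NS, gave 11 calls, a share near that of all genes. Of the 34 genes, 2 (5.88%) rose and 9 (26.5%) fell, beside 18.3% of all genes tested that rose and 18.8% that fell, and the median was -0.041, against 0.018 over all genes. Xbp1 rose by 0.57 (SE 0.05) and the chaperone Hyou1 by 0.26 (SE 0.05). The 9 that fell moved by between -0.11 and -0.36 and included 6 of the 9 ERAD genes tested. The count of 11 was one of the less firm ones: it was 6 without HS replicate 1, 7 with no filter on dim probes and 7 when only these 2 groups were fitted. Of the sensors, Ern1 fell by 0.36 (SE 0.07), while Atf6 (0.02, SE 0.06) and Eif2ak3 (-0.05, SE 0.05) were not called. None of the 5 translocation and UFM1 genes was called by limma's moderated test, with 1 at an unadjusted p under 0.05.

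Salt in the presence of LPS, the comparison of HS + LPS with NS + LPS, moved more of the genes. 7 (20.6%) rose and 13 (38.2%) fell, beside 26.2% of all genes tested that rose and 31.4% that fell, so the members' shares were near the background. Their median was -0.073, against -0.043 over all genes. The 2 largest differences were in ERAD genes: Herpud1, an ER membrane component of the Hrd1 ubiquitin ligase complex, fell by 0.81 (SE 0.06) and Sel1l, the adaptor of that ligase, by 0.80 (SE 0.06). The largest rise was that of Hyou1 (0.39, SE 0.05), followed by Edem2 (0.34, SE 0.08) and P4hb (0.32, SE 0.05). These comparisons share arrays (NS + LPS serves this one and the LPS comparison), so their values are given side by side and not correlated.

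**Figure D3:**
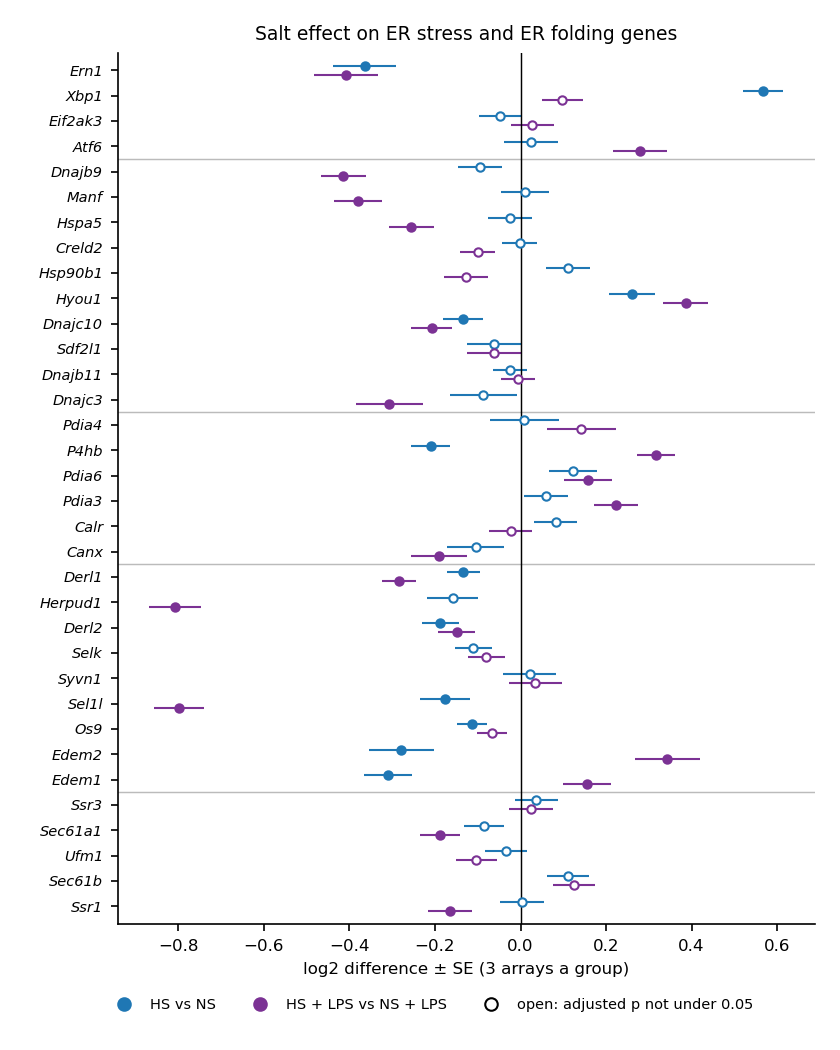
Effect of added salt on each of the 34 genes, as log2 difference ± SE from 3 arrays a group, without LPS (blue, HS minus NS) and with LPS (purple, HS + LPS minus NS + LPS). Filled points passed an adjusted p of 0.05 in limma's moderated test. Xbp1 stood out to the right without LPS, and Herpud1 and Sel1l to the left with LPS.

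The sensors and Xbp1 moved in different directions. Xbp1 mRNA, the target of IRE1 alpha, read 6.59, 6.48 and 6.49 on the NS arrays, 7.04, 7.06 and 7.17 on the HS arrays, 6.55, 6.48 and 6.51 on the NS + LPS arrays, and 6.64, 6.60 and 6.59 on the HS + LPS arrays. The 3 HS arrays stood above all others, and the NS and NS + LPS arrays overlapped. The rise with salt alone was 1.48-fold (limma's moderated test, adjusted p = 1.56e-05). With LPS present the difference was 0.098 (SE 0.05, adjusted p = 0.10 by limma), and LPS in added salt lowered Xbp1 by 0.48 (SE 0.05, adjusted p = 6.19e-06 by limma). Its 1 probe (chr11:5425816-5425875, plus strand of build mm9) gives the total signal at that site, so splicing was not measured.

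Ern1, which encodes IRE1 alpha, read 0.42, 0.39 and 0.19 on the NS arrays and 0.04, 0 and -0.13 on the HS arrays. With LPS it read 0.79, 0.88 and 0.90 without added salt and 0.55, 0.42 and 0.37 with it. The gene was higher with LPS and lower with salt, and neither pair of salt groups overlapped. The salt difference was -0.36 (SE 0.07) without LPS and -0.41 (SE 0.07) with it (adjusted p = 0.0035 and 0.0010 by limma). The LPS difference was 0.52 (SE 0.07) in NS and 0.48 (SE 0.07) in HS.

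Atf6, the gene of the ATF6 sensor, read 1.42, 1.48 and 1.55 in NS, 1.36, 1.60 and 1.56 in HS, 0.77, 0.69 and 0.75 in NS + LPS, and 1.02, 1.05 and 0.97 in HS + LPS. All 6 LPS arrays were below all 6 arrays without LPS. The fall with LPS was 0.75 on the log2 scale in NS (SE 0.06, adjusted p = 2.13e-06 by limma) and 0.49 in HS (SE 0.06, adjusted p = 4.51e-05). Eif2ak3, the gene of PERK, read 0.98, 0.90 and 0.82 in NS, 0.83, 0.90 and 0.83 in HS, 0.51, 0.45 and 0.54 in NS + LPS, and 0.56, 0.50 and 0.51 in HS + LPS. It too was lower on every LPS array, by 0.40 in NS and 0.33 in HS (SE 0.05 each), and showed no called salt difference.

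**Figure D4:**
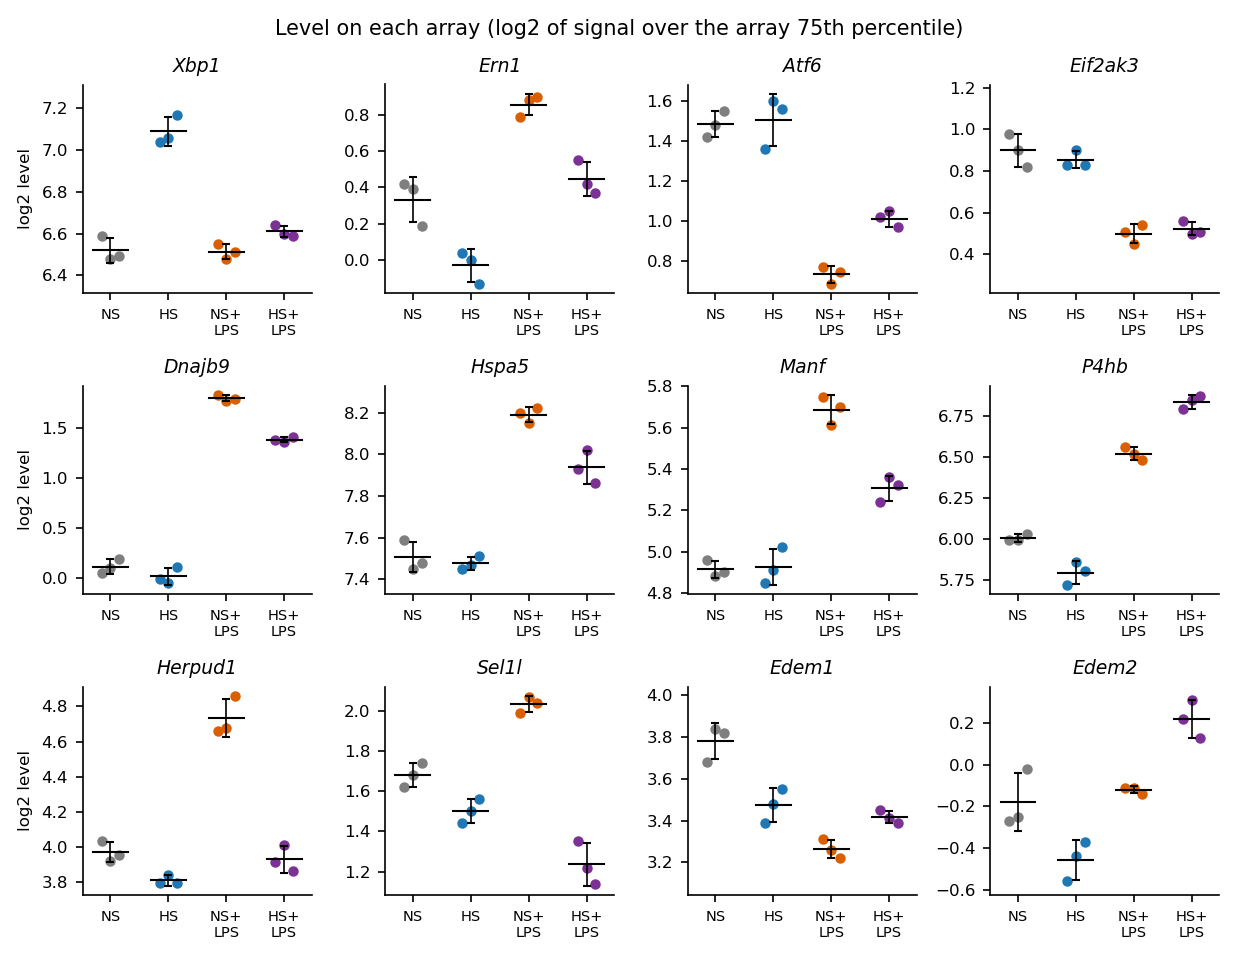
Log2 level on each of the 12 arrays for 12 genes, with the mean (long bar) and SD (error bar) of the 3 arrays of a group. The axes differ between panels and do not start at 0. Xbp1 was highest in HS, while Herpud1 and Sel1l were highest in NS + LPS. In HS + LPS, Herpud1 overlapped the NS arrays and Sel1l lay below them.

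Of the 10 HSP70 and HSP90 type chaperones and partners, 9 rose and 1 fell with LPS alone, and the same counts were found with LPS in salt. Of all genes tested, 28.6% rose and 35.2% fell with LPS alone, and 30.5% and 41.8% with LPS in salt. Dnajb9, a DnaJ partner of BiP that also binds IRE1 alpha, read 0.05, 0.10 and 0.19 in NS, -0.01, -0.05 and 0.11 in HS, 1.83, 1.77 and 1.79 in NS + LPS, and 1.38, 1.36 and 1.41 in HS + LPS. The LPS groups were far above the others and did not overlap each other. The rise was 3.22-fold in NS (adjusted p = 9.24e-10 by limma) and 2.58-fold in HS, and salt lowered the gene by 0.41 (SE 0.05, adjusted p = 8.93e-05 by limma) when LPS was present. Without LPS the salt difference was -0.095 (SE 0.05), not called. These values are from the brightest probe. At the other Dnajb9 probe, 959 bases upstream, neither salt difference was called: -0.20 (SE 0.10) with LPS and 0.27 (SE 0.10) without. That probe rose with LPS by 2.07 (SE 0.10) in NS.

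Hspa5, the HSP70 of the ER known as BiP, read 7.59, 7.45 and 7.48 in NS, 7.45, 7.47 and 7.51 in HS, 8.20, 8.15 and 8.22 in NS + LPS, and 7.93, 8.02 and 7.86 in HS + LPS. It rose 1.61-fold with LPS in NS and 1.37-fold in HS, and fell by 0.255 (SE 0.05, adjusted p = 0.0020 by limma) with salt in LPS. Manf, a secreted ER stress factor, was likewise highest in NS + LPS, then HS + LPS: 4.96, 4.88 and 4.90 in NS, 4.85, 4.91 and 5.02 in HS, 5.75, 5.61 and 5.70 in NS + LPS, and 5.24, 5.36 and 5.32 in HS + LPS. Its rise with LPS was 1.71-fold in NS and 1.30-fold in HS. Creld2, an ER folding factor, rose from 6.30, 6.26 and 6.27 in NS to 6.98, 6.93 and 6.94 in NS + LPS, and from 6.22, 6.27 and 6.33 in HS to 6.86, 6.89 and 6.79 in HS + LPS. The salt difference of Creld2 was not called with or without LPS.

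Dnajc3, a co-chaperone of BiP that is also known to restrain PERK, went against the rest of its group. It read 1.32, 1.23 and 1.10 in NS, 1.12, 1.16 and 1.11 in HS, 0.61, 0.49 and 0.49 in NS + LPS, and 0.23, 0.37 and 0.08 in HS + LPS. Every LPS array was lower than every array without LPS. The fall was 0.69 in NS (SE 0.08, adjusted p = 2.04e-05 by limma) and 0.91 in HS (SE 0.08). Salt lowered it by a further 0.31 (SE 0.08, adjusted p = 0.0070 by limma) in the presence of LPS.

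Hyou1, a large chaperone that exchanges nucleotide on BiP, was the 1 gene of this group raised by salt both without LPS (0.26, SE 0.05) and with it (0.39, SE 0.05). Its levels were -0.11, -0.20 and -0.13 in NS, 0.06, 0.08 and 0.20 in HS, 0.13, 0.09 and 0.17 in NS + LPS, and 0.46, 0.49 and 0.61 in HS + LPS. The HS + LPS arrays were the highest. Smaller LPS rises, between 0.13 and 0.37 in NS, were found for Hsp90b1 (the HSP90 of the ER), Dnajb11, Dnajc10 and Sdf2l1. Some of these calls were lost when 1 array was left out. That of Sdf2l1 was lost without NS replicate 2 or 3 or NS + LPS replicate 1 or 3 (adjusted p up to 0.10 by limma) and, in salt, without HS replicate 1 or HS + LPS replicate 2. In salt, the Dnajc10 call was lost without HS replicate 1 or 3 or HS + LPS replicate 2 (adjusted p up to 0.099 by limma) and the Hsp90b1 call without HS replicate 1 or 2 or HS + LPS replicate 1 or 2 (adjusted p up to 0.16). The fall of Dnajc10 with salt alone (-0.13, SE 0.05) was lost without NS replicate 1 or 3 or any of the 3 HS arrays (adjusted p up to 0.13 by limma). These Dnajc10 values are from the brightest probe. The other, 36456 bases upstream, was called lower with salt alone (-0.452, SE 0.146) and with salt in LPS (-0.445, SE 0.146). That Dnajc10 probe rose with LPS by 0.714 in NS and 0.722 in HS (SE 0.146 each).

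Among the 6 lectin chaperones and disulfide isomerases, 5 rose and 1 fell with LPS, both without and with added salt. The shares of all genes tested were 28.6% and 35.2% without added salt, and 30.5% and 41.8% with it. Pdia4 read 2.39, 2.18 and 2.31 in NS, 2.19, 2.37 and 2.36 in HS, 3.39, 3.18 and 3.21 in NS + LPS, and 3.37, 3.51 and 3.32 in HS + LPS. It rose 1.95-fold in NS and 2.14-fold in HS with LPS, and salt made no called difference. P4hb read 5.99, 5.99 and 6.03 in NS, 5.72, 5.86 and 5.80 in HS, 6.56, 6.52 and 6.48 in NS + LPS, and 6.79, 6.85 and 6.87 in HS + LPS. Salt lowered P4hb by 0.21 (SE 0.05, adjusted p = 0.0047 by limma) without LPS and raised it by 0.32 (SE 0.05, adjusted p = 2.12e-04) with LPS, so the 4 groups did not overlap. Pdia3, the isomerase that works with calnexin and calreticulin, read 4.77, 4.83 and 4.85 in NS, 4.83, 4.88 and 4.91 in HS, 5.25, 5.19 and 5.20 in NS + LPS, and 5.35, 5.42 and 5.54 in HS + LPS. It rose with LPS by 0.40 (SE 0.05) in NS and 0.56 (SE 0.05) in HS, and with salt in LPS by 0.22 (SE 0.05).

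The lectin chaperones moved apart. Canx, the membrane-bound calnexin, read 6.10, 5.93 and 5.97 in NS, 5.85, 5.94 and 5.89 in HS, 5.57, 5.34 and 5.52 in NS + LPS, and 5.23, 5.31 and 5.31 in HS + LPS, all LPS arrays below all others. It fell by 0.525 with LPS in NS (SE 0.07, adjusted p = 4.66e-05 by limma) and by 0.61 in HS (SE 0.07). Calr, the soluble calreticulin, rose with LPS by 0.37 (SE 0.05) in NS and 0.26 (SE 0.05) in HS. Salt in LPS lowered Canx by 0.19 (SE 0.07), a call lost when replicate 1 or 3 of NS + LPS, or 1 or 2 of HS + LPS, was left out (adjusted p up to 0.11 by limma). Pdia6 rose by 0.41 (SE 0.06) in NS and 0.445 (SE 0.06) in HS with LPS at its brightest probe. Its other 2 probes were not called in NS (0.03 and -0.04), and in HS the most upstream one fell by 0.52 (SE 0.14). Its salt rise in LPS (0.16, SE 0.06) was lost when replicate 2 or 3 of NS + LPS, or 1 or 2 of HS + LPS, was left out (adjusted p up to 0.10 by limma).

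Of the 9 ERAD genes tested, 7 rose and 1 fell with LPS alone, beside 28.6% and 35.2% of all genes tested. Herpud1 read 4.03, 3.92 and 3.95 in NS, 3.79, 3.84 and 3.79 in HS, 4.66, 4.68 and 4.86 in NS + LPS, and 3.91, 4.01 and 3.86 in HS + LPS. The NS + LPS arrays stood above all the others, and the HS + LPS arrays overlapped the NS arrays. LPS raised Herpud1 1.70-fold in NS (adjusted p = 1.12e-06 by limma) and by 0.12 (SE 0.06, not called) in HS. Salt in LPS lowered it 1.75-fold (adjusted p = 2.79e-06 by limma). Sel1l was likewise highest in NS + LPS: 1.62, 1.68 and 1.74 in NS, 1.44, 1.5 and 1.56 in HS, 1.99, 2.07 and 2.04 in NS + LPS, and 1.35, 1.22 and 1.14 in HS + LPS, with the HS + LPS arrays the lowest. LPS raised Sel1l by 0.35 (SE 0.06) in NS and lowered it by 0.27 (SE 0.06, adjusted p = 0.0021 by limma) in HS. Its fall with salt alone (-0.18, SE 0.06) was lost when replicate 2 or 3 of NS, or 1 or 2 of HS, was left out (adjusted p up to 0.12 by limma). Syvn1, the Hrd1 ligase that Sel1l serves, rose with LPS by 0.39 (SE 0.06) in NS and 0.40 (SE 0.06) in HS and was not called for salt.

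The mannose-recognising lectins Edem1 and Edem2, which hand misfolded glycoproteins to degradation, had salt differences of opposite sign without and with LPS. Edem1 read 3.68, 3.84 and 3.82 in NS, 3.39, 3.48 and 3.55 in HS, 3.31, 3.26 and 3.22 in NS + LPS, and 3.45, 3.41 and 3.39 in HS + LPS. Edem2 read -0.27, -0.25 and -0.02 in NS, -0.56, -0.44 and -0.37 in HS, -0.11, -0.11 and -0.14 in NS + LPS, and 0.22, 0.31 and 0.13 in HS + LPS. Both were lower with salt alone, by 0.31 (SE 0.06) and 0.28 (SE 0.08), and higher with salt in LPS, by 0.155 (SE 0.06) and 0.34 (SE 0.08). Of these 4 calls, that of Edem2 with salt alone was lost without HS replicate 1 (adjusted p = 0.056 by limma), and that of Edem1 with salt in LPS without NS + LPS replicate 2 or 3 or any HS + LPS array (adjusted p up to 0.11). LPS lowered Edem1 by 0.52 (SE 0.06, adjusted p = 1.38e-05 by limma) in NS, and raised Edem2 by 0.68 (SE 0.08) in HS.

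The derlins, channel proteins of ERAD, rose with LPS at their brightest probes. Derl1 read 4.35, 4.27 and 4.26 in NS, 4.14, 4.17 and 4.17 in HS, 5.32, 5.25 and 5.27 in NS + LPS, and 4.96, 5.02 and 5.01 in HS + LPS, a rise of 1.98-fold in NS and 1.79-fold in HS. Derl2 read 5.64, 5.51 and 5.52 in NS, 5.36, 5.38 and 5.36 in HS, 6.26, 6.24 and 6.20 in NS + LPS, and 6.03, 6.12 and 6.10 in HS + LPS. At these probes salt lowered both, without and with LPS, by between 0.13 and 0.28. None of these group pairs overlapped, which also held for 50.5% of all genes tested without LPS and 64.2% with it. The other Derl1 probe gave -0.013 (SE 0.049, not called) with salt alone and -0.316 (SE 0.049, called) with salt in LPS. With the mean of a gene's probes the Derl1 call for salt alone was lost. The other Derl2 probes gave -0.165 (not called) and -0.184 (called) with salt alone. The Derl1 call for salt alone was lost without NS replicate 1 or HS replicate 1 or 3 (adjusted p up to 0.064 by limma), and the Derl2 call for salt in LPS without HS + LPS replicate 1 (adjusted p = 0.057). Selk, a selenoprotein that associates with the derlins, read 5.47, 5.38 and 5.37 in NS, 5.25, 5.33 and 5.30 in HS, 6.08, 6 and 6.01 in NS + LPS, and 5.95, 5.99 and 5.92 in HS + LPS. The lectin Os9 rose with LPS by 0.31 (SE 0.04) in NS and 0.36 (SE 0.04) in HS. Its fall with salt alone (-0.11, SE 0.04) was lost without NS replicate 1 or 2 or any HS array (adjusted p up to 0.083 by limma).

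All 5 translocation and UFM1 genes rose with LPS alone, by between 0.22 and 0.54 at their brightest probes, and 4 of them in HS. Of all genes tested, 28.6% rose with LPS alone and 30.5% in HS. The sign turned for Ssr1 (-0.774 in NS) and Ufm1 (-0.332 in NS and -0.878 in HS) with the mean of a gene's probes, and the other 2 Ssr1 probes fell by 0.69 and 1.86 in NS. Ssr3, a subunit of the translocon-associated complex that binds signal sequences, read 4.58, 4.66 and 4.69 in NS, 4.60, 4.66 and 4.78 in HS, 5.24, 5.16 and 5.16 in NS + LPS, and 5.20, 5.22 and 5.21 in HS + LPS. At this probe, its brightest, the LPS groups were alike and above both others. At the other Ssr3 probe, 7879 bases upstream, the salt difference with LPS was -0.231 (SE 0.059, called). The channel subunits Sec61a1 and Sec61b rose by 0.40 (SE 0.05) and 0.22 (SE 0.05) in NS. Ufm1, a ubiquitin-like modifier placed on ribosomes at the translocon, rose by 0.33 (SE 0.05) at its brightest probe. Salt in LPS lowered Sec61a1 by 0.19 (SE 0.05) and Ssr1, another subunit of the signal sequence complex, by 0.165 (SE 0.05). The Ssr1 call was lost without NS + LPS replicate 1 or HS + LPS replicate 1 (adjusted p up to 0.074 by limma).

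Whether salt acted differently with LPS than without was tested by the interaction term, the salt difference with LPS minus that without. It was called for 11 of the 34 genes, 4 higher (11.8%) and 7 lower (20.6%). Of all genes tested, 17.4% were higher and 18.8% lower, so the members as a set were not called more often. Across all genes the split of these calls depended on the scaling, with 48% of calls higher here, 58.2% after quantile normalization or in the authors' deposited value table, and 61.2% after cyclic loess. In size, Herpud1 (-0.65, SE 0.08), Edem2 (0.62, SE 0.11), Sel1l (-0.62, SE 0.08) and P4hb (0.53, SE 0.06) were over 0.5. Xbp1 followed at -0.47 (SE 0.07) and Edem1 at 0.46 (SE 0.08). The smallest calls were near the threshold and kept their sign when 1 array was left out. Atf6 (0.26, SE 0.09) was lost on leaving out each of 10 arrays in turn (adjusted p up to 0.10 by limma). Hspa5 (-0.23, SE 0.07) was lost on leaving out each of 8 (up to 0.081), and Hsp90b1 (-0.24, SE 0.07) each of 8 (up to 0.067). Since the term contains the HS + LPS arrays, it cannot be told apart from their slide and scan day.

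For members with several probes, the LPS difference was not the same at every probe. 12 members had more than 1 probe that passed. Counting only probes well above background on all 12 arrays, a limit added after seeing the data, left 11 such members. In NS + LPS against NS, 2 of these 11, Ssr1 and Derl2, had probes called in opposite directions, beside 11.4% of the 3447 genes with several such probes. In HS + LPS against HS there were 4, Derl2, Pdia6, Selk and Syvn1, beside 13.3%. The second probe of Syvn1 is on the strand opposite to its brightest probe. Syvn1 therefore does not show that probes on the strand of the gene moved in opposite directions. The most downstream and the most upstream probe on the strand of the main probe were also compared on each array, a comparison likewise added after seeing the data. In 9 members both probes were well above background on all 12 arrays. The downstream probe was lower relative to the upstream one with LPS in 7 of these 9 (adjusted p under 0.05 by limma), beside 35.2% of the 3182 genes with such a pair. In HS it was lower in 6 of the 9, beside 41.6%, and higher in 1, Pdia6. Ssr1 and Ufm1 had downstream probes below that limit on 1 or more arrays. With them the counts were 9 of 11 and 8 of 11, beside 33.9% and 39.6% of the 3788 genes with any pair, but the Ufm1 probe passed the filter only through groups where it is bright and lends no support to those counts. With salt alone none of the 11 was called by limma's moderated test, with 2 at an unadjusted p under 0.05. Few of the 3788 genes were called with salt alone either, 3.17% lower and 2.69% higher. Position, transcript isoform and probe sequence were not tested as sources of these differences.

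Ssr1 showed the widest gap. Its upstream, brightest probe (chr13:38070087-38070146, minus strand, mm9) read 5.63, 5.48 and 5.48 in NS and 5.82, 5.73 and 5.71 in NS + LPS. A probe 2181 bases downstream read 0.25, 0.21 and 0.19 in NS and -0.44, -0.52 and -0.44 in NS + LPS, and one 6615 bases downstream read -1.04, -1.25 and -1.01 in NS and -2.95, -3.00 and -2.92 in NS + LPS. The upstream probe rose by 0.22, while the others fell by 0.69 and 1.86 on the log2 scale. The gap between the outer probes widened by 2.08 with LPS in NS (SE 0.19, adjusted p = 5.73e-06 by limma). Derl2 had the same pattern: the upstream pair rose by 0.73 and 0.68, and the probe 2409 bases downstream of the brightest fell by 0.55 (SE 0.07). Derl1 rose at both probes, by 0.99 at the brightest and by 0.21 at the one 1609 bases downstream. The probes of Selk, 268 bases apart, gave 0.63 (called) and -0.11 (not called), and the gap between them changed by -0.73 (SE 0.05). Ern1 and Pdia6 showed no called change of the gap in NS. The downstream probe of Ufm1 was well above background on 5 of 12 arrays, none of them HS + LPS, so no fold is given for it. No annotation of mm9 was used here, so the probes' place in exons or untranslated regions is not given.

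**Figure D5:**
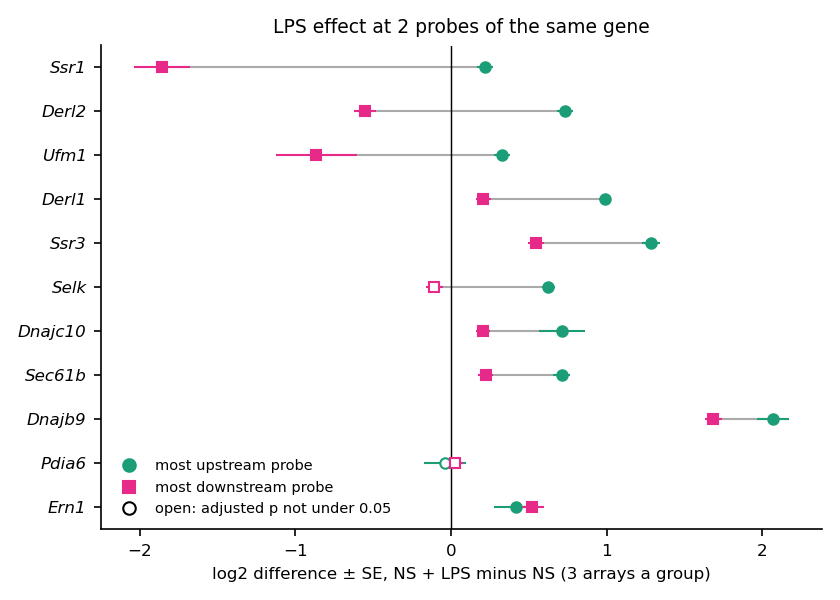
LPS difference (NS + LPS minus NS, log2 ± SE from 3 arrays a group) at the most upstream (green circle) and the most downstream (pink square) probe of each of 11 genes. Filled points passed an adjusted p of 0.05 in limma's moderated test. The downstream probe lay to the left in 9 genes, and in Ssr1, Derl2, Ufm1 and Selk it lay on the other side of 0, open for Selk.

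The calls of members with and without the printed ERSE or ERSE-II letters are given as counts, and their difference was not tested. Of the 8 tested genes with an ERSE, 6 rose with LPS alone and 2, Canx and Dnajc3, fell. Of the 19 tested genes in the promoter table with neither element, 15 rose and 2 fell, beside 28.6% and 35.2% of all genes tested. With salt alone none of the 8 genes with an ERSE was called by limma's moderated test (0 at an unadjusted p under 0.05). Their differences lay between -0.105 and 0.12. Of the 19, 1 rose and 8 fell with salt alone, beside 18.3% and 18.8% of all genes tested. Herpud1, with its ERSE-II, rose with LPS and fell with salt in LPS. The letters TGACGTGG of the related UPRE element were rare, in 222 windows (0.676%) and 0.714% of genes, and in none of the members' windows. The tonicity element TonE, the site of the osmotic stress factor NFAT5, matched in 1628 windows (4.96%) and in 5.74% of genes. Among the 30 members in the table TonE matched in 2 (6.67%), Dnajb9 and Ssr1.

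Other genes of the pathway are given beside these members, and the lists were not tested as sets. Of all genes tested, 18.3% rose and 18.8% fell with salt alone, and 26.2% and 31.4% with salt in LPS. With LPS alone 28.6% rose and 35.2% fell, and with LPS in HS 30.5% and 41.8%. The interaction was higher in 17.4% and lower in 18.8%. The counts of each list below stand beside these shares. In the PERK-ATF4 branch, 19 genes were tested, and 1 rose and 12 fell with salt alone (median -0.24). The fall was largest for Atf3 (-1.87, SE 0.13), Trib3 (-1.78, SE 0.13), Ddit3, the gene of CHOP (-1.07, SE 0.08), and Chac1 (-1.04, SE 0.105). With salt in LPS 2 rose and 13 fell, among them Trib3 (-1.19, SE 0.13), Mthfd2 (-0.90, SE 0.09), Ddit3 (-0.87, SE 0.08) and Chac1 (-0.70, SE 0.105). LPS alone raised 16 and lowered 1 of the 19, with a 4.83-fold rise of Ppp1r15a, a phosphatase subunit that reverses PERK signalling, and a 4.77-fold rise of Ddit3. LPS in HS raised 15 and lowered 2, and the interaction was higher in 7 and lower in 6, with Atf3 at 1.40 (SE 0.19). Ddit3 read 1.62, 1.78 and 1.55 in NS, 0.61, 0.68 and 0.45 in HS, 3.95, 3.84 and 3.92 in NS + LPS, and 3.06, 3.12 and 2.91 in HS + LPS. The 4 groups did not overlap.

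Among 23 transducers and regulators tested, 1 rose and 8 fell with salt alone, led by the membrane-bound factors Creb3l4 (-0.66, SE 0.06) and Creb3l1 (-0.60, SE 0.095). With LPS alone 9 rose and 9 fell, Bcl2l11, a cell death gene of the BCL2 family, rising 11.3-fold and Wfs1 2.45-fold. With salt in LPS 7 rose and 5 fell, not far from the shares of all genes. Wfs1 was at -0.84 (SE 0.15) and Atf6b, the paralog of Atf6, at 0.59 (SE 0.05). LPS in HS raised 11 and lowered 10, and the interaction was higher in 6 and lower in 3.

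Of 22 folding enzymes tested outside the 35 genes, 6 rose and 8 fell with LPS alone, shares near those of all genes, with Dnajb14 (-1.48, SE 0.07) and Erp44, which retrieves proteins from the early secretory pathway (-1.35, SE 0.06), the lowest, and 10 rose and 9 fell with LPS in HS. Salt alone raised 2 and lowered 6, salt in LPS raised 5 and lowered 8, led by the prolyl isomerase Fkbp14 (0.95, SE 0.05), and the interaction was higher in 4 and lower in 4. Of 22 other ERAD genes, 9 rose and 3 fell with LPS alone, with Faf2 (1.12, SE 0.06) and Fam8a1 (1.03, SE 0.08) leading, and 7 rose and 6 fell with LPS in HS. Ubac2, a membrane protein of ERAD, rose 2.71-fold with salt alone and 2.42-fold with salt in LPS. The list as a whole gave 5 higher and 4 lower with salt alone, and 4 higher and 7 lower with salt in LPS. Both were near the shares of all genes. The interaction was called for 1 higher and 1 lower of these ERAD genes.

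Translocation, signal peptidase and UFM1 genes outside the 35 rose with LPS in 22 of 32 and fell in 3, and in HS 21 rose and 4 fell. Spcs3, a signal peptidase subunit, rose 3.22-fold and Srpr, the signal recognition particle receptor, 1.88-fold with LPS alone. Salt alone raised 2 and lowered 7 of them, none by more than 0.26. Salt in LPS raised 6 and lowered 10, shares near those of all genes. The interaction was higher in 2 and lower in 7. Of 20 genes of ER exit and retrieval, 13 rose and 3 fell with LPS alone, with the coat subunits Sec23b (0.74, SE 0.07) and Sec24d (0.72, SE 0.07) and the retrieval receptor Kdelr2 (0.67, SE 0.06) at the top. In HS 12 rose and 2 fell, salt alone gave 2 calls, both lower (Arfgap3 and Surf4), salt in LPS raised 2 and lowered 4, and the interaction was higher in 3 and lower in 1.

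The macrophage marker list, summed over its 6 genes as multiples of the 75th percentile, ran from 679 to 719 in NS, 661 to 736 in HS, 563 to 595 in NS + LPS and 735 to 774 in HS + LPS. Such a sum weights the brightest probes most and does not show single genes. With LPS alone 2 of the 6 rose and 4 fell, and with LPS in HS 2 rose and 2 fell. Of the T cell list, 2 of 5 genes, Cd3e and Lck, were tested. Their sum ran from 4.34 to 4.71 in NS, 4.53 to 4.79 in HS, 11.7 to 13.2 in NS + LPS and 13.4 to 13.7 in HS + LPS. The 2 genes did not move together. With LPS alone 1 rose and the other was not called, and with LPS in HS 1 rose and 1 fell. Cd3g was not well above background on any array. Of the 5 neutrophil and mast cell genes, Elane was well above background on 12 arrays and Mpo on 2, and Ly6g, Cpa3 and Mcpt4 on none. Of the 5 fibroblast genes, Col1a2 was so on 9 arrays, Dcn on 5, Col1a1 and Col3a1 on 1 each and Pdgfra on none. Of the 4 endothelial genes, Kdr was so on 12, Vwf on 9, Cdh5 on 1 and Tek on none. The part of these shifts in the LPS results was not tested.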

How the data were processed

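RNA of 12 RAW264.7 samples (4 groups of 3) was hybridised to 1-colour Agilent arrays. The deposited scanner files hold intensity per spot, made with Agilent Feature Extraction 10.7.3.1, per the file headers (background-subtracted processed signal, probe coordinates of mm9). The authors' deposited value table, whose intensity values follow the scanner values' order with near-equal medians (28.8 to 28.81), served as an alternative. It looks quantile normalized. Its normalization and scale are not given in the sources used here.

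Of 62976 spots, 59305 were non-control. Spots of a probe were averaged, leaving 55671 probes, with 10 lost to outlier flags. Values are log2 of the processed signal over the array's 75th percentile. A probe passed if every array of 1 or more groups had it well above background, and a gene took its brightest passing probe (18845 probes, 13838 genes). Symbols were updated with RefSeq tables (GRCm38.p6). Group means were fitted over all 12 arrays in limma 3.58.1 (R 4.3.3), with Benjamini-Hochberg adjustment over all genes, called at 0.05. The number of arrays limits the precision. Replicate numbers showed no pairing of arrays: of 18 same-numbered pairs, 2 correlated above 0.1, beside 4 of 36 differently numbered pairs. This does not exclude a pairing. Per-array values are given for genes called with a difference of at least 0.5 and for the sensors. Of other lists, the largest called differences are given, at most 4 per comparison. Members and lists were chosen with earlier results of these data known. The B and plasma cell marker list is not reported here. Figures used matplotlib. Alternatives were other background corrections, normalizations, filters, probe rules, sample sets, blocks and left-out arrays.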

Additional observations from a re-analysis of the deposited data

Results flagged for a closer look

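The salt difference with LPS differed from that without LPS, by the interaction term of limma's moderated test, for 11 of the 34 genes tested. Of the members, 11.8% were higher and 20.6% lower, beside 17.4% and 18.8% of all genes tested. The members as a set were thus not called more often than other genes. It was lower with LPS for Herpud1 (-0.649), Sel1l (-0.621), Xbp1 (-0.469), Manf (-0.39), Dnajb9 (-0.319), Hsp90b1 (-0.239) and Hspa5 (-0.229). It was higher with LPS for Edem2 (0.623), P4hb (0.528), Edem1 (0.463) and Atf6 (0.256). P4hb, Edem1 and Edem2 fell with salt alone and rose with salt in LPS, while Xbp1 rose with salt alone and was not called in LPS. All of these terms contain the HS + LPS arrays, which cannot be told apart from their slide and scan day.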

How the results depend on the processing

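Counts of called members kept within 1.5 times of their value under each alternative run, except for salt alone, where 11 became 7 with no filter on dim probes, 7 with only the groups compared in the fit, and 6 to 9 with 1 array left out. Leaving out 1 array gave 16 to 19 calls for salt in LPS, 31 to 32 for LPS alone, 28 to 31 for LPS in HS and 8 to 12 for the interaction. The calls of 6 of 11, 15 of 20, 28 of 32, 25 of 31 and 8 of 11 members, for salt alone, salt in LPS, LPS alone, LPS in HS and the interaction, held in every alternative run. With the mean of a gene's probes in place of the brightest, signs turned, among differences called under either rule, for Ssr1 (-0.774) and Ufm1 (-0.332) with LPS alone, for Ssr1 (-1.348), Ufm1 (-0.878), Syvn1 (-0.067) and Pdia6 (-0.022) with LPS in HS, and for Ssr3 (-0.103) and Syvn1 (-0.196) with salt in LPS. The second probe of Syvn1 is on the opposite strand. The cause of these turns was not tested. With a replicate block, members called were 8 for salt alone, 18 for salt in LPS, 31 for LPS alone, 29 for LPS in HS and 8 for the interaction. No pairing by replicate number was seen, which does not exclude one. Slide as a block gave 10 calls for salt alone and 31 for LPS alone. Dim probes limit what can be said of Derl3 and of the downstream probe of Ufm1.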
